A study of Mus musculus with 2 samples.

Results

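The miR-297, miR-466, miR-467 and miR-669 families are groups of closely similar microRNA (miRNA) genes of rodents. Members were taken as all gene rows of the count tables whose identifier carries a GENCODE mouse symbol beginning with Mir297, Mir466, Mir467 or Mir669, followed by a letter or nothing. The rule gave 68 of 1973 gene rows, with 5 Mir297, 25 Mir466, 17 Mir467 and 21 Mir669 genes. Another 12 genes of these names, all inside the same host gene, have no row in the tables and were not analysed here. Both libraries came from adrenal glands of newborn mice of strain B6NCrl at age 0 days, with no treatment named in the labels. RNA was restricted to sizes below 30 bases. Each library holds the 2 adrenals of 1 pup, and the pups, called pup 1 and pup 2, were littermates whose sex was not recorded. They form a single group of n = 2, so no p-value was computed. The labels give both samples the same donor identifier while describing different pups, and if a single animal were meant, each SD below would be technical.

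A miRNA is a short RNA cut from a hairpin precursor. It guides repression of messenger RNAs that pair with its seed, bases 2 to 8 of the mature miRNA. Most members of these families lie in a single long intron of Sfmbt2, a Polycomb-group gene. Sfmbt2 is imprinted in the mouse and is known for expression of the paternal allele in extraembryonic tissue, and its intronic miRNA cluster is best known from the placenta. The hairpins are rich in alternating purine and pyrimidine bases, much like the simple repeats scattered through the genome.

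The RefSeq table of miRNA sequences (build GRCm38.p6) held a mature sequence for 8 members, all of them outside Sfmbt2. They are shown because their letters carry the repeat character of these families, and the seed is in capitals, 5′ to 3′.
mmu-miR-466j: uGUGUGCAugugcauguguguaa
mmu-miR-466k: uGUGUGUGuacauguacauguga
mmu-miR-669n: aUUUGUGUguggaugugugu
mmu-miR-467h: aUAAGUGUgugcauguauaugu
mmu-miR-466q: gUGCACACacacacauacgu
mmu-miR-466i-3p: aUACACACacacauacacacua
mmu-miR-467f: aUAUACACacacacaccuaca
mmu-miR-467g: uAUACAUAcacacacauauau
The 8 seeds are all different, although the names group these genes into 3 families. The seed of miR-467h is shared with miR-668-5p, which is no member. The first 4 sequences hold the letters GUGUGU and the last 4 hold the complementary ACACAC. The motif GUGUGU or its reverse complement ACACAC was found in 8 of these 8 mature sequences and in 20 of the 1730 other mature sequences of the table (1.16%). Among the hairpins of the GENCODE transcripts, the same motif, written GTGTGT or ACACAC, was in 68 of 68 members and in 220 of 1778 other miRNA rows outside Sfmbt2 (12.4%). It was also in 45 of the 48 other miRNA rows inside Sfmbt2 (93.75%), so it is shared by hairpins of the intron that are no members by name. The members and the other rows outside Sfmbt2 had similar median hairpin lengths, 94 and 89 bases. The longest stretch that alternates a pair of bases had a median of 9 bases in the members, of 8 in the other rows inside Sfmbt2 and of 5 in those outside. It was longest in Mir466q, with 28 bases, and among the members shown it was 23 bases in Mir466k and Mir466i.

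The hairpin of Mir466k, taken from RefSeq, shows how such a repeat lies within a precursor.
Mir466k: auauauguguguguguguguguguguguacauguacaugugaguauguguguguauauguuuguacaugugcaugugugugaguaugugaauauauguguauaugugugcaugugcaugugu
It spans 122 bases at chr3:85467377-85467498 on the plus strand, opposite an intron of Gm37240. The mature miR-466k printed above begins within the GU repeat near its 5′ end.

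The members together held 2443 counts in pup 1 and 7287 in pup 2. This was 0.216% of all same-strand miRNA gene counts in pup 1 (exact Clopper-Pearson 95% interval 0.207 to 0.225) and 0.219% in pup 2 (0.214 to 0.224). On the scale of counts per 1000000 miRNA gene counts (CPM), the sum was 2159 in pup 1 and 2190 in pup 2, or 2174 ± 22.1 (SD, n = 2). The sum differed little between the littermates, with a ratio of pup 2 to pup 1 of 1.01 (exact 95% counting interval 0.969 to 1.06). Library totals were 1131762 counts in pup 1 and 3327743 in pup 2, a depth ratio of 2.94. Reads that mapped to several places were 34.9% and 32.2% of all reads in the tables and were not assigned to genes. For families of near-identical copies, all levels given here therefore cover only the reads placed at 1 locus, and every level is uncertain for that reason. Intervals cover counting error only, since reads amplified by PCR are not independent molecules. As a check of the tissue label, the neuroendocrine Mir375 had 37586 and 30415 CPM, the liver miRNA Mir122 had 2979 and 4081 CPM, and the skeletal muscle miRNA Mir206 had 82.2 and 411 CPM. The part of other tissue in the members' levels was not tested.

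A few members carried nearly all of these counts. Of the 68 members, 12 (17.6%) had a count in at least 1 pup, beside 635 of all 1973 gene rows (32.2%). A level of 10 CPM or more in both pups was reached by 6 members (8.82%), beside 275 of all gene rows (13.9%). These 6 genes, Mir467c, Mir467d, Mir467e, Mir669c, Mir669l and Mir669o, held 99.5% of the members' counts in each pup. The mean level of the 6 ran from 136 to 796 CPM with a median of 293 CPM, close to the median of 275 CPM over the 284 gene rows with a mean of at least 10 CPM. Both shares of members are below those of all gene rows.

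**Figure D1:**
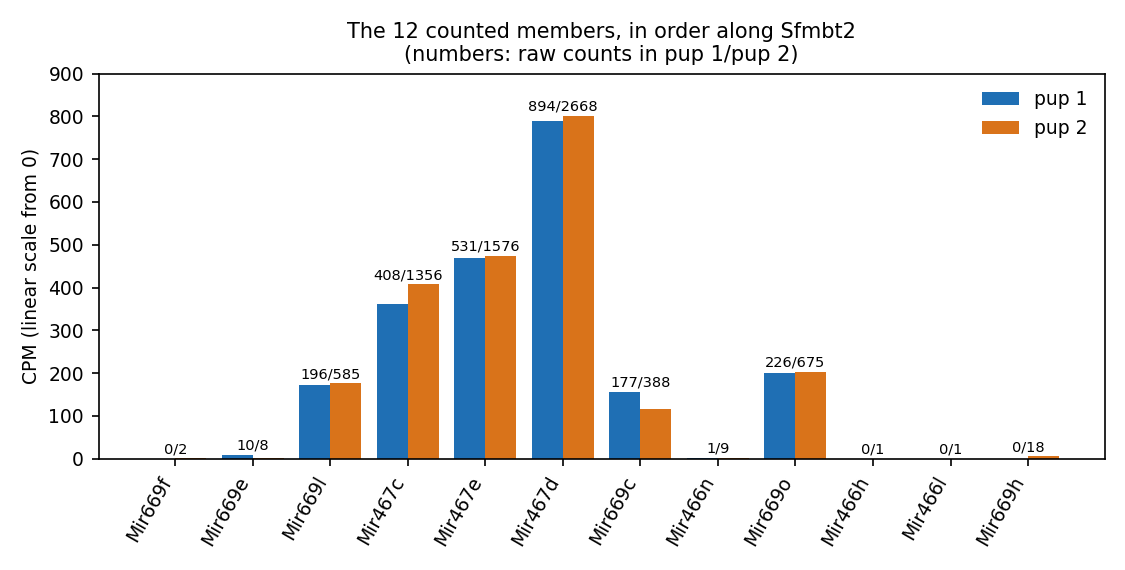
CPM of the 12 counted members in pup 1 (blue bars) and pup 2 (orange bars), ordered by position along Sfmbt2, with raw counts of pup 1/pup 2 above the bars. Mir467d is highest in both pups at about the same level, 790 and 802 CPM, and 6 of the 12 genes are too low to show a bar of any height.

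The miR-467 genes led the families. Mir467d had 894 counts in pup 1 and 2668 in pup 2, or 790 and 802 CPM (796 ± 8.36, SD, n = 2), which placed it 85th among all 1973 gene rows. Mir467e followed with 531 and 1576 counts, or 469 and 474 CPM (471 ± 3.12), at rank 112. Mir467c had 408 and 1356 counts, or 360.5 and 407 CPM (384 ± 33.2), at rank 123. The order of these genes was the same in both pups. Mir467d exceeded Mir467e 1.68-fold in pup 1 (1.51 to 1.88) and 1.69-fold in pup 2 (1.59 to 1.80), and Mir467e exceeded Mir467c 1.30-fold (1.14 to 1.48) and 1.16-fold (1.08 to 1.25). Together the 3 genes made up 75.03% of the members' counts in pup 1 and 76.8% in pup 2. A read from RNA of this size generally covers a whole mature miRNA, so CPM levels of genes were compared without division by hairpin length. The other 14 Mir467 genes, among them Mir467a-1, Mir467a-10 and Mir467a-2, were at 0 in both pups.

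Next came the miR-669 genes. Mir669o had 226 and 675 counts, or 199.7 and 203 CPM (201 ± 2.23, SD, n = 2). Mir669l had 196 and 585 counts, or 173 and 176 CPM (174 ± 1.85). Mir669c had 177 and 388 counts, or 156 and 117 CPM (136 ± 28.1). Mir669o and Mir669l were nearly equal in the pups, and Mir669c was lower in pup 2. The order of neighbours was not settled by pup 1, where Mir669o over Mir669l was 1.15 (0.948 to 1.40) and Mir669l over Mir669c was 1.11 (0.899 to 1.36). In pup 2 the same ratios were 1.15 (1.03 to 1.29) and 1.51 (1.32 to 1.72). Another 3 Mir669 genes had a few counts each, and 15 had none. Mir669e had 10 counts in pup 1 and 8 in pup 2. Mir669f had 0 and 2, and Mir669h had 0 and 18. Of these, Mir669f and Mir669h rest on pup 2 alone and Mir669e was lower in CPM in the deeper library.

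The miR-466 and miR-297 genes were almost uncounted. Of 25 Mir466 genes, 3 had any count: Mir466n with 1 and 9, Mir466h with 0 and 1, and Mir466l with 0 and 1. None of the 5 Mir297 genes had a count. The family sums were 1651 ± 44.7 CPM for Mir467, 521 ± 24.4 CPM for Mir669 and 2.09 ± 1.71 CPM for Mir466 (SD, n = 2). Mir466 was thus the family with the most genes and, after Mir297, the lowest sum. A member at 0 could still have had reads placed at its locus at up to 2.65 CPM (pup 1) or 0.902 CPM (pup 2), the levels of the 3-count floor. This floor sets no limit on reads that mapped to several places, which were not assigned to genes.

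Every member count lay inside Sfmbt2, on mm10 at chr2:10370510-10595253. Of the 59 members inside this gene, 12 had a count. Of the 9 members elsewhere, none had, and their sum of 0 counts allows at most 0.123% of the members' counts in pup 1 and 0.0412% in pup 2 by the 3-count floor. With 9 genes against 59 and a background of 32.2% of rows with a count, this is a description of these libraries and was not tested. The 9 genes elsewhere are Mir466j (chr10:60960723-60960844), Mir466f-4 (chr13:71107089-71107209) and Mir467h (chr9:115381819-115381939) outside any annotated host, and 6 genes within introns. Mir466q lies in an intron of Tnik on its strand (chr3:28419943-28420018). The others lie opposite their hosts' introns: Mir467f in Fxr2 (chr11:69635400-69635519), Mir466i in Cdk13 (chr13:17747473-17747593), Mir466k in Gm37240, Mir669n in Slc30a7 (chr3:115979902-115979955) and Mir467g in Grk4 (chr5:34732853-34732972). The mature sequences printed above all belong to these uncounted genes.

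Inside Sfmbt2, all 59 members lie on the plus strand, as the host gene does, in intron 10 of the annotated transcript with the most exons (23 exons). They span 51.6 kb (chr2:10466663-10518279), with a median gap of 314 bases between neighbours. The counted genes stood at both ends of this array. Up to and including Mir467c, 13 members over 7.37 kb held 25.1% of the members' counts in pup 1 and 26.8% in pup 2. From Mir467e on, 20 members over 12.6 kb held 74.9% and 73.2%. Between them, 26 members over 29.2 kb (chr2:10474433-10503645) had no count in either pup. This middle stretch holds 11 of the 14 Mir467 genes of the array, 8 Mir466 genes and 7 Mir669 genes. Its limits were set after the levels were seen.

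**Figure D2:**
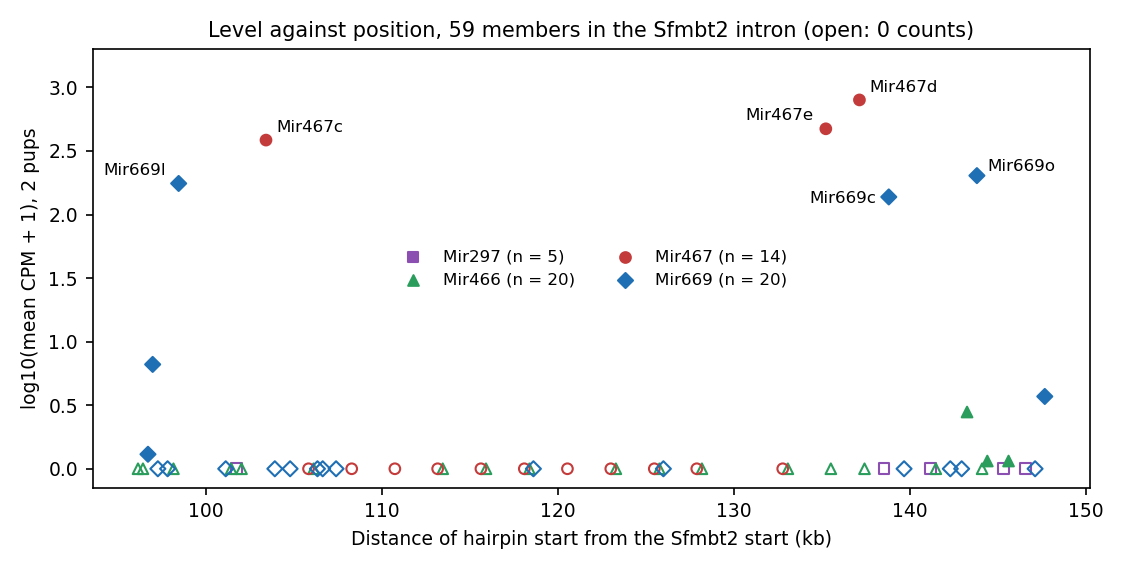
Mean level of the 59 members inside Sfmbt2, as log10 of mean CPM + 1 over 2 pups, against distance from the start of Sfmbt2 in kb. Symbols and colours give the family, and open symbols are members with 0 counts. The 26 members between Mir467c and Mir467e are all at 0.

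The positions of the well-counted genes on mm10 are as follows. Mir669l (ENSMUSG00000076959.1) lies at chr2:10468971-10469068 and Mir467c (ENSMUSG00000077049.2) at chr2:10473931-10474027. Beyond the uncounted stretch, Mir467e (ENSMUSG00000076948.2) lies at chr2:10505721-10505807, Mir467d (ENSMUSG00000077021.2) at chr2:10507630-10507714 and Mir669c (ENSMUSG00000076118.1) at chr2:10509296-10509404. Mir669o (ENSMUSG00000077086.1) lies at chr2:10514300-10514395. Another 48 miRNA rows inside Sfmbt2, which are no members by name, had 1 count in pup 1 and 2 in pup 2 in all.

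The members were next described by how far each hairpin can be told from other annotated hairpins. Each hairpin was cut into overlapping windows of 22 bases, about the length of a mature miRNA, and a window was called unique if no other of 2202 annotated miRNA hairpins held it on either strand. The members had a median of 37.9% unique windows, beside 100% in 1778 other rows outside Sfmbt2 and 11.3% in the 48 other rows inside it. No unique window was found in 20 members (29.4%), beside 218 of the other rows outside Sfmbt2 (12.3%) and 22 of the 48 inside (45.8%). In all, 15 members had a hairpin identical to that of another member. The largest set held 6 genes, Mir467a-2, Mir467a-4, Mir467a-5, Mir467a-7, Mir467a-8 and Mir467a-9. These windows were compared with annotated hairpins only, not with the genome, and they cover the whole hairpin and not the mature arm alone.

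Counts were found only among members with unique windows, but most members with such windows had none. Of the 20 members without a unique window, 0 had a count, and of the 48 with at least 1, 12 had. Every 22-base window of these 20 hairpins also lies in another annotated hairpin, and reads mapping to several places were not assigned to genes. Their 0 is therefore no result about their level. Over the other miRNA rows outside Sfmbt2, 8 of 218 without a unique window had a count (3.67%), beside 613 of 1560 with one (39.3%). Of the 48 other rows inside Sfmbt2, 2 had a count. In the uncounted middle stretch, 19 of 26 members had no unique window, the median was 0% and the highest 40%. Among the 21 uncounted members in the flanks, 1 had no unique window and the median was 40%. Against annotated miRNA hairpins alone, the 9 members outside Sfmbt2 were more distinct, with a median of 80.2%. All 33 windows of Mir669n were unique, and all 9 genes were at 0. Against transcripts that are no miRNA, these 9 were less distinct. They shared windows with a median of 86 other genes, beside 0 for the 6 well-counted members and 0 for the 47 uncounted members inside. Mir669n shared windows with 0 such genes. The part that multi-mapped reads play in the zeros was not tested.

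**Figure D3:**
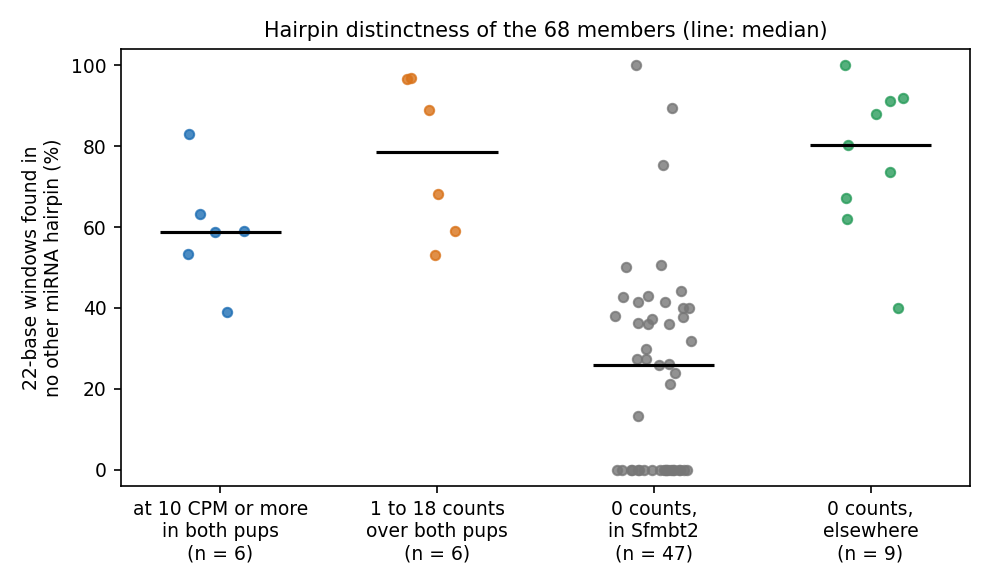
Percentage of 22-base windows of each hairpin found in no other annotated miRNA hairpin, by member, in 4 groups by count and place. Each point is a gene and the line is the median. The 47 uncounted members in Sfmbt2 include the 20 at 0%, while the 9 uncounted members elsewhere have a median of 80.2%.

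Sequence shared with transcripts that are no miRNA was common among members and other rows alike. Of the 68 members, 34 (50%) had at least 1 window of 22 bases in a GENCODE transcript of another, non-overlapping gene. So did 737 of the 1778 other rows outside Sfmbt2 (41.5%) and 15 of the 48 inside (31.25%). Such sharing held for 8 of the 9 members outside Sfmbt2 and for 1 of the 6 members at 10 CPM or more. Among the uncounted members inside, it held for 19 of 21 in the flanks and for 0 of 26 in the middle stretch. Mir466i shared windows with 3716 such genes, Mir466q with 3712 and Mir466k with 3668, and these are the members with the longest repeats. Mir669c, the exception among the well-counted genes, shared windows with 2. The 6 members with only 1 to 18 counts over both pups all shared a window with another gene, from 1 gene to 152 for Mir669h. Of the printed mature sequences, each occurred once in the RefSeq table. Exact copies of miR-467g lay in transcripts of 4 other genes and of miR-466i-3p in 1, and that of miR-467h lay in 2 further annotated hairpins, Gm25510 and Gm26303.

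The well-counted miR-467 genes were close to each other, and the miR-669 genes less so. In end-free global alignments, Mir467c, Mir467d and Mir467e were 94.1% to 95.3% identical over 85 or 86 columns. Mir669o was 82.7% identical to Mir669l and 82% to Mir669c, and Mir669l and Mir669c were 75.5% identical. Between the families, identity ran from 68.04% for Mir467d and Mir669c to 80.2% for Mir467e and Mir669o, so it overlapped the identities among the miR-669 genes. The most abundant gene, Mir467d, was also the least distinct of the 6, with 39.1% unique windows, and it shared 22-base windows with 14 other hairpins. Mir669c was the most distinct, with 82.95%.

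The littermates differed little in the well-counted members, as in most gene rows. Of the 6 members with a mean of at least 10 CPM, 0 differed 2-fold between the pups (log2 ratio with a prior of 1 CPM), beside 15 of 284 gene rows (5.28%). With only 6 genes and so low a background, this 0 does not set the members apart. Their median log2 ratio of pup 2 over pup 1 was 0.02, beside 0.08 over the 284 rows, and 5 of 6 were higher in pup 2 by CPM, beside 165 of 284. Scaling by TMM, which raised the median of all rows by 0.10, or by DESeq2 size factors also gave 5 genes above 0 and 1 below. The ratios were 1.01 for Mir467e (0.914 to 1.12), 1.01 for Mir467d (0.941 to 1.10), 1.02 for Mir669l (0.862 to 1.20) and 1.02 for Mir669o (0.872 to 1.19). Mir467c was slightly higher in pup 2, at 1.13 (1.01 to 1.27). The exception was Mir669c, which was lower in pup 2 at 0.746 (0.623 to 0.896), a log2 ratio of -0.42. It fell from 7.25% of the members' counts in pup 1 (6.25 to 8.35) to 5.32% in pup 2 (4.82 to 5.87), while Mir467d held 36.6% in both. In whole glands, fewer cells of a type and less RNA per cell cannot be told apart.

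**Figure D4:**
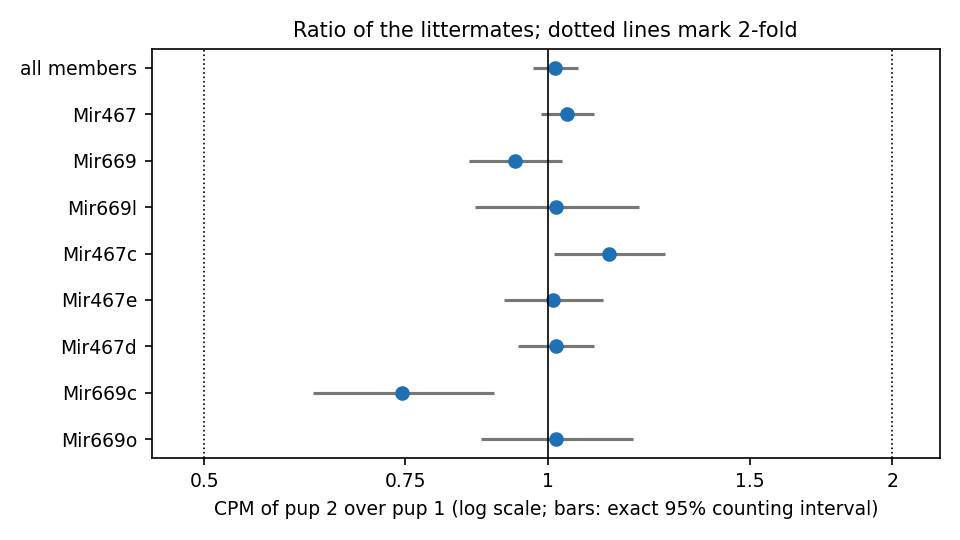
CPM of pup 2 over pup 1 on a log scale, for the sum of all members, the Mir467 and Mir669 sums and the 6 members at 10 CPM or more; bars are exact 95% counting intervals. All points lie within the dotted lines at 2-fold, and Mir669c at 0.746 is the farthest from 1.

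Among genes with few counts the pups could differ more. Mir669h had 0 counts in pup 1 and 18 in pup 2. Its 5.41 CPM in pup 2 was 2.04 times the 3-count floor of pup 1, 2.65 CPM. That value leaves out the counting error of the 18 counts and is not a minimum. For the observed counts, with 0 in pup 1, the exact 95% counting interval of pup 2 over pup 1 has a lower limit of 1.495. Mir669e was lower in pup 2, at 0.272 of pup 1 (0.0933 to 0.766), from 10 and 8 counts. Mir466n had a ratio of 3.06 with an interval from 0.424 to 134, so a difference was not detectable at this depth. Few gene rows had a count on the opposite strand, although such counts totalled 39345 in pup 1 and 104740 in pup 2. None of the 68 members had one in either pup, and only 41 of the other 1905 rows had, so this does not set the members apart.

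Values of 3 other rodent multi-copy families are given beside those of the members. The 5 Mir465 and 2 Mir743 genes had 0 counts. The 13 Mir344 genes had 5 counts in pup 1 and 30 in pup 2, or 4.42 and 9.02 CPM. A count was found for 6 of these 13 genes, beside 12 of the 68 members and 32.2% of all gene rows. None of the 13 reached 10 CPM in both pups, beside 6 of the 68 members. The sums cover different numbers of genes, and no difference between families was tested, since genes are not replicates.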

How the data were processed

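The authors deposited 1 table of raw read counts per library, not pooled or scaled, with an unstranded, a same-strand and an opposite-strand count. The sample notes deposited with the tables give mm10 and GENCODE M4, and the aligner is not given in the sources used here. Columns were told apart by the tables' layout and totals. Left out of library sizes were 4 rows that name no gene, which held, in pup 1 and pup 2, unmapped reads (10.6% and 11.2% of all reads), multi-mapped reads (34.9% and 32.2%), reads in no gene (4.03% and 3.86%) and ambiguous reads (0 in both). CPM was computed here from same-strand counts over all gene rows. Symbols, positions, hosts and the hairpins compared by windows, motif and alignment came from GENCODE M21 on the same assembly, and the printed mature sequences and hairpin from RefSeq (GRCm38.p6). Of 1973 rows, 1894 matched a symbol, and the 79 others held 0 counts.

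Ratios have exact conditional Poisson intervals and shares exact Clopper-Pearson intervals, both at 95%, and ratios and window counts were checked on simulated data. Named were members with a mean of at least 10 CPM, the 5 most abundant inside Sfmbt2, members 2-fold apart, and up to 3 examples at 0 per family; other named members were chosen after their values were seen, as were the window comparisons. Members and lists were chosen with earlier results of these data known. Alternatives used edgeR 4.0.16 (TMM) and DESeq2 1.42.0 (size factors); Python 3.11.15, scipy 1.17.1 and Biopython 1.88 (end-free global alignment of hairpins) gave the rest. A genome search for copies was not run.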

Additional observations from a re-analysis of the deposited data

How the results depend on the processing

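Of 43 alternative values for 10 results, 37 stayed within a tolerance. It was the SD of the pups for sums and shares, and 1.5 times for counts of genes. For the median log2 ratio it was the SD over the 6 members, 0.202, and TMM moved that median from 0.02 to 0.13. Only this median could change sign, and it did not. The sum outside Sfmbt2 and the share inside rest on 0 counts elsewhere, so rescaling or leaving out a pup could not move them. Leaving out 1 of 2 pups moves any summed level by less than their SD. The summed level of the members, all of it inside Sfmbt2, was 2105 CPM with the unstranded column and 1121 CPM with all reads of the tables as the denominator, against 2174 CPM. The 6 members at 10 CPM or more stayed 6 in number with minimums of 5 and 20 CPM, with either scaling, with the unstranded column and without either pup. Without pup 2, 8 members had a count instead of 12. With no minimum level, 2 members, Mir669e and Mir669h, differed 2-fold between the pups instead of 0, both on few counts. The same count over all gene rows was not made at this setting, so these 2 have no background to be set beside. Counting copies of the printed mature sequences over all GENCODE transcripts, an alternative added after the data were seen, left 5 of 8 at a single place. Windows of 20 or 24 bases also gave 20 members without a unique window. A search of the whole genome for copies was not run, because no genome sequence was used here. No paired analysis was possible because there is a single group. TMM raised the median log2 ratio of all gene rows by 0.10. Depth limits the members with 1 to 18 counts, and multi-mapped reads were not analysed here.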
